A study of Mus musculus with 8 samples.

Results

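A set of 1834 genomic regions, each inside an intron of a protein-coding gene and 1 to 100 kb from the nearest protein-coding transcription start site (TSS), held a peak in every library of NFIA, NFIB and NFIX chromatin immunoprecipitation followed by sequencing (ChIP-seq). Peaks of the 6 deposited lists were joined into merged regions wherever they shared 1 bp or more, and common regions are those in which every library had a peak. The 1834 members were 30.3% (95% Wilson interval 29.1 to 31.4%) of the 6062 common regions, which in turn were 13.2% of 46070 merged regions. The members were 12.4% of the 14752 merged regions that lay in an intron at these distances, whatever the number of libraries. The members were chosen by their peak calls and midpoints, so the number of libraries, the folds and the position in an intron 1 to 100 kb from a TSS are descriptions with no test.

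The cells were granule neuron progenitors, the dividing cells of the postnatal cerebellum that give rise to granule neurons, dissociated with papain from mouse pups at postnatal day 7. For each factor 1 library came from the CD1 strain and 1 from a mixed strain background, likened in the labels to outbred CD1, and all 6 were single-end ChIP-seq libraries. The antibodies were Abcam ab41851 for NFIA and Sigma Aldrich SAB1401263 for NFIX. The NFIB antibody is from Novus Biologicals in the sample labels and Sigma HPA003956 in the design text, a difference not resolved here. The 2 input samples were not analysed here. Libraries are called by factor and background (NfiA CD1, NfiA Mixed and so on). No label says whether they derive from different animals or cultures, so the spread over the 6, and any p from it, may be technical. Peak lists hold no expression values, so the labelled cell type could not be checked against its markers.

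Nuclear factor I proteins are transcription factors that bind DNA as homodimers or heterodimers through a shared N-terminal domain, and the 4 mammalian members recognise the same palindrome with TTGGC and GCCAA arms. In the cerebellum they are known for roles in granule neuron differentiation, including axon extension, migration and dendrite formation. Introns hold many enhancers, the distal elements through which such factors act on a promoter. A nearest TSS or a host intron names a neighbour, and does not show that a region acts on that gene.

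Sequence could be read for 42 of the 1834 members (2.29%), those whose 101 bp around the mean of the 6 summits lay whole inside a transcript of the GENCODE annotation on mm10. The 6 of these 42 with a full NFI palindrome (TTGGC and GCCAA arms set 5 bases apart) are shown because the palindrome is the element the family is known to bind. Each is the plus strand of mm10, 5′ to 3′, with the arms in capitals, and is named by the gene whose intron holds it.
Adgra3, chr5:50052596-50052696: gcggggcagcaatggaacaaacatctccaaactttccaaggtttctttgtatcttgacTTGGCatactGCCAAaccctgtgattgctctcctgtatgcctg
Got2, chr8:95887012-95887112: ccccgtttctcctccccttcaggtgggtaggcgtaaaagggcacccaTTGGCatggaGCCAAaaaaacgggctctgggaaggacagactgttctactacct
Tmem150c, chr5:100085275-100085375: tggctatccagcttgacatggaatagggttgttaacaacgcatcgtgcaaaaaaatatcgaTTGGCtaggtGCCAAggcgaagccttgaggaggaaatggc
Mkln1, chr6:31477111-31477211: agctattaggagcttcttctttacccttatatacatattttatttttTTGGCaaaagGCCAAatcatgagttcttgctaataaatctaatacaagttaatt
Tle3, chr9:61405302-61405402: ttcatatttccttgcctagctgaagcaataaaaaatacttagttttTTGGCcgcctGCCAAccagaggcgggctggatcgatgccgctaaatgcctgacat
Adamtsl2, chr2:27097960-27098060: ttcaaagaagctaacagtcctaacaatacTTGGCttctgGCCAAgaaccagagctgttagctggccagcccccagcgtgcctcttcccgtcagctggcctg

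All 6 of these sequences lay in transcripts annotated as retained introns of the host genes. The palindrome's centre lay 3 to 18 bp from the mean summit, with a median of 9 bp. Adgra3 encodes an adhesion G protein-coupled receptor and Got2 a mitochondrial aspartate aminotransferase. Mkln1 encodes muskelin and Tle3 a Groucho-family corepressor, and Adamtsl2 encodes a secreted ADAMTS-like glycoprotein. The Tmem150c region had Enoph1 as its nearest TSS. Lowest, median and highest folds over the 6 libraries were 9.71, 12.7 and 16.7 in Adgra3, 8.65, 11.4 and 16.8 in Got2, and 5.51, 8.19 and 9.22 in Adamtsl2. Fold here is the authors' deposited enrichment of a peak's summit over its local background, and where a library had more than 1 peak in a region the highest was taken. Mean fold percentiles of the 6 regions among all members were 41.1 to 78.5, with a median of 57.7. The median was 38.0 for readable members without the palindrome and 41.0 for all readable members.

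Of the other 36 readable members, 9 held a single element, TTGGCA on either strand, and 27 held neither. Of those 27, 18 held CAGATG on either strand or CAGCTG, forms of the E-box, the core that basic helix-loop-helix factors bind. The Stau1 region is shown as the readable member with the highest mean fold percentile, 99, and its single element is in capitals. The next 3 have the highest mean fold percentiles among members read from non-coding transcripts with these E-box forms and neither the palindrome nor TTGGCA. These forms are in capitals, and other E-box forms and lone TTGGC arms were not marked. A window in a coding transcript of Elavl2, which also holds such an E-box form and neither the palindrome nor TTGGCA, ranked between them and is not printed.
Stau1, chr2:166951421-166951521: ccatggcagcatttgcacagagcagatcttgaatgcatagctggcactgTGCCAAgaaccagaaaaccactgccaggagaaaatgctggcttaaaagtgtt
Alk, chr17:72521600-72521700: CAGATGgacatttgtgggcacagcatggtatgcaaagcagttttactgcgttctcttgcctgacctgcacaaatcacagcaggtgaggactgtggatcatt
Gpm6a, chr8:55043112-55043212: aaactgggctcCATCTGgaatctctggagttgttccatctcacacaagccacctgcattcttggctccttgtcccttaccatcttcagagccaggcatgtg
St3gal5, chr6:72121446-72121546: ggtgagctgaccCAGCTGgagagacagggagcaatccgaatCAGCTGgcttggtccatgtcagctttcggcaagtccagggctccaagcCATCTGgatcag

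The share of summit windows with each motif was set against peak-free windows 1 kb away on either side, library by library. There were 43 to 44 summit windows and 120 to 125 flanking windows per library. Flanks were read for every member with a readable flank, so some belong to members whose summit window could not be read. The rule keeps member midpoints out of coding exons and sets no such limit on flanks. Summit and flanking windows were not matched for the kind of transcript, and the part of this in the motif differences was not tested. The palindrome was in 5 or 6 summit windows of each library, 13.0% ± 1.20 (SD, n = 6 libraries), and in 0 flanking windows, where a count of 0 allows a share of up to 2.4 to 2.5%. The summit share as counted was then set against flanks at that limit of 3 windows. It was 4.55-fold higher at summits in NfiB CD1 and 5.81-fold higher in NfiX CD1, the lowest and highest of the 6. The summit shares carry counting error too, and their Wilson intervals began at 4.95% in NfiB CD1 and 6.56% in NfiX CD1. These ratios are therefore not lower bounds. The difference was 13.0 percentage points ± 1.20 and positive in 6 of 6 libraries (exact two-sided sign-flip permutation p = 0.0312, the smallest that 6 libraries can give). The mean log2 odds ratio was 5.31 ± 0.16 with 0.5 added to each cell (exact sign-flip p = 0.0312). That correction alone gave 1.49 at the same exact sign-flip p of 0.0312 for the arms set 8 bases apart, which no window held, and the difference in points for that spacing was 0 (exact p = 1). The libraries read almost the same regions, so the 6 values are not independent of each other, and all 6 palindromes were in retained-intron transcripts.

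The shorter motifs showed the same order at summits and flanks. TTGGCA was in 32.2% ± 3.08 of summit windows and 4.34% ± 1.14 of flanking windows. CAGATG was in 34.9% ± 4.98 of summit windows and 5.69% ± 0.677 of flanking windows, and CAGCTG in 21.5% ± 3.42 and 6.65% ± 1.01. Each difference was positive in 6 of 6 libraries (exact two-sided sign-flip permutation p = 0.0312 for each of the 3, the smallest possible). With Benjamini-Hochberg adjustment over the 5 motifs tested, the control spacing included, the exact permutation p for the palindrome and these 3 was 0.0391. A palindrome with A next to its left arm, or T next to its right arm, also holds TTGGCA, so these counts overlap. In RefSeq promoter windows of the same 101 bp, 32841 in all, the palindrome was in 0.0122%, TTGGCA in 4.91%, CAGATG in 6.18% and CAGCTG in 5.55%. A match describes letters in a window and does not show binding there.

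**Figure D1:**
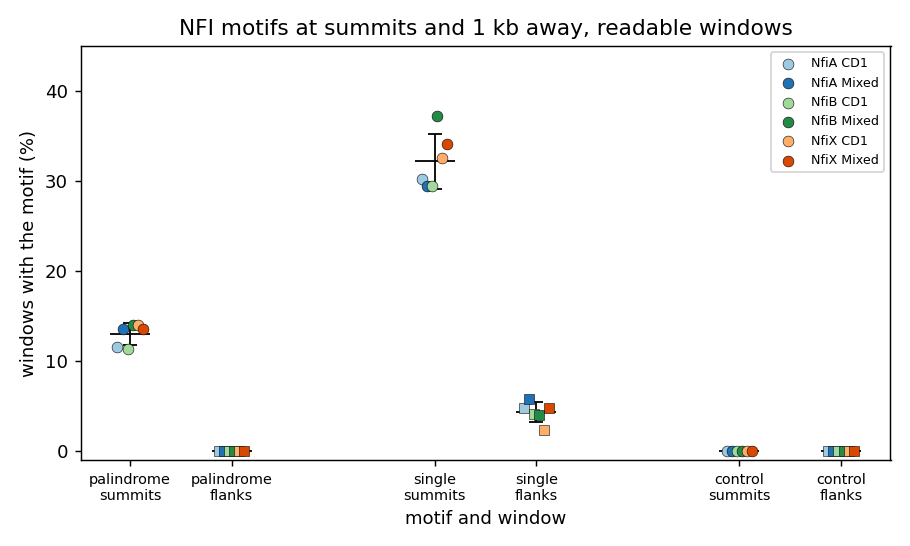
Share of 101 bp windows (percent) with the NFI palindrome, the single element TTGGCA or a control, the arms set 8 bases apart, at member summits and in flanks 1 kb away. Points are the 6 libraries with their mean and SD, and the palindrome was at 13.0% of summit windows on average and in 0 flanking windows.

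Among readable intronic regions at the same distances, the palindrome was in 6 of the 42 members (14.3%, 95% Wilson interval 6.72 to 27.8%), in 3 of 251 regions with peaks of 2 to 5 libraries (1.20%) and in 0 of 156 with a peak of 1 library, which allows a share of up to 1.92%. TTGGCA was in 33.3%, 27.5% and 20.5% of the same sets, CAGATG in 40.5%, 31.5% and 21.2%, and CAGCTG in 23.8%, 13.1% and 14.7%. Members were thus highest for the palindrome and the 3 shorter motifs. For the 3 shorter motifs, however, their intervals overlapped those of regions with 2 to 5 libraries and those of regions with 1 library. Intervals cover counting error only, and regions are not replicates.

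The 6 summits of a member spanned a median of 59.0 bp (quartiles 39.2 and 86.0 bp), against 63.0 bp in the other 4228 common regions. All 6 summits lay within 100 bp in 1513 members (82.5%). Median width was 576 bp (range 252 to 2149 bp), against 595 bp in the other common regions. Another member lay within 10 kb of 313 members (17.1%).

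The library that limited the set was NfiX CD1, which has the shortest peak list. Among intronic regions at these distances, 1896 lacked a peak of NfiX CD1 alone, against 71 that lacked NfiA CD1 alone and 10 to 32 for each of the other libraries. Without NfiX CD1 the rule gave 3730 regions and 2269 nearest genes, and without any other single library 1844 to 1905 regions. Near the limits of distance, common regions at 951 bp from Ttyh3, 954 bp from Acadm and 975 bp from Ube2g2 were outside, and those at 1005 bp from Nfia, 1029 bp from Chst3 and 1030 bp from Stk40 were inside. At the far limit, regions at 99503 bp from Adamts6, 99621 bp from Rabgap1l and 99990 bp from Mapkap1 were inside, and those at 100116 bp from Gabra2, 100495 bp from Esrrg and 100506 bp from Pank3 were outside.

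Median folds of the members lay above those of all peaks in 5 libraries and just below in NfiX CD1. For NFIA the members' median was 7.69 (CD1) and 8.41 (Mixed), against 5.79 and 5.51 over all peaks. For NFIB it was 11.2 (CD1) and 9.85 (Mixed), against 5.76 and 5.52. For NFIX it was 5.93 (CD1) and 8.98 (Mixed), against 5.98 and 6.03. The common regions outside the set had slightly higher medians than the members in each library, at 8.14, 8.74, 12.2, 10.7, 6.14 and 9.43 in the same order. Ranking members by fold within a library, Spearman's rank correlation averaged 0.71 for the 3 pairs of the same factor (0.67 to 0.77), 0.64 for the 6 pairs of the same background (0.42 to 0.77) and 0.56 for the 6 pairs that shared neither (0.36 to 0.63). These describe 1834 regions that share their sequence and their selection, and carry no p. Taking the 183 members of highest fold in each library, 40 were among them in all 6 libraries and 166 in exactly 1.

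The region with the highest mean fold percentile lay in the first intron of Scml4, a gene of the Polycomb-related SCM family. Its folds were 30.7 (CD1) and 30.2 (Mixed) for NFIA, 29.4 (CD1) and 25.7 (Mixed) for NFIB, and 37.1 (CD1) and 41 (Mixed) for NFIX. It was at chr10:42863360-42864064, 2.92 kb downstream of the TSS. The Nsd3 region, in the first intron of a histone methyltransferase gene, had folds of 23.5 (CD1) and 35.8 (Mixed) for NFIA, 34.4 (CD1) and 25.1 (Mixed) for NFIB, and 33.0 (CD1) and 36.0 (Mixed) for NFIX. The background with the higher fold thus differed between the factors there.

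Zbtb16, a zinc finger transcription factor gene, carried a region in intron 3, 95.6 kb downstream of the nearest TSS, with folds of 34.4 (CD1) and 25.2 (Mixed) for NFIA, 28.2 (CD1) and 26.5 (Mixed) for NFIB, and 29.8 (CD1) and 37.6 (Mixed) for NFIX. The Cnr1 region, in the first intron of the gene of the brain cannabinoid receptor, had lowest, median and highest folds of 25.4, 29.4 and 36.2. All 4 of these regions had folds of 23.5 or more in every library. The library with the lowest fold differed among the 25 genes. In Crybg3 it was NfiB CD1, with a fold of 21.2. In Pard3, which encodes a cell polarity scaffold, the fold was 15.6 in NfiX CD1 and 27.0 to 35.7 in the other 5 libraries. In Ntrk3, the gene of the neurotrophin receptor TrkC, the region in the first intron had folds of 13.3 (CD1) and 29.6 (Mixed) for NFIX, 18.1 (CD1) and 20.4 (Mixed) for NFIA, and 27.4 (CD1) and 27.7 (Mixed) for NFIB.

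**Figure D2:**
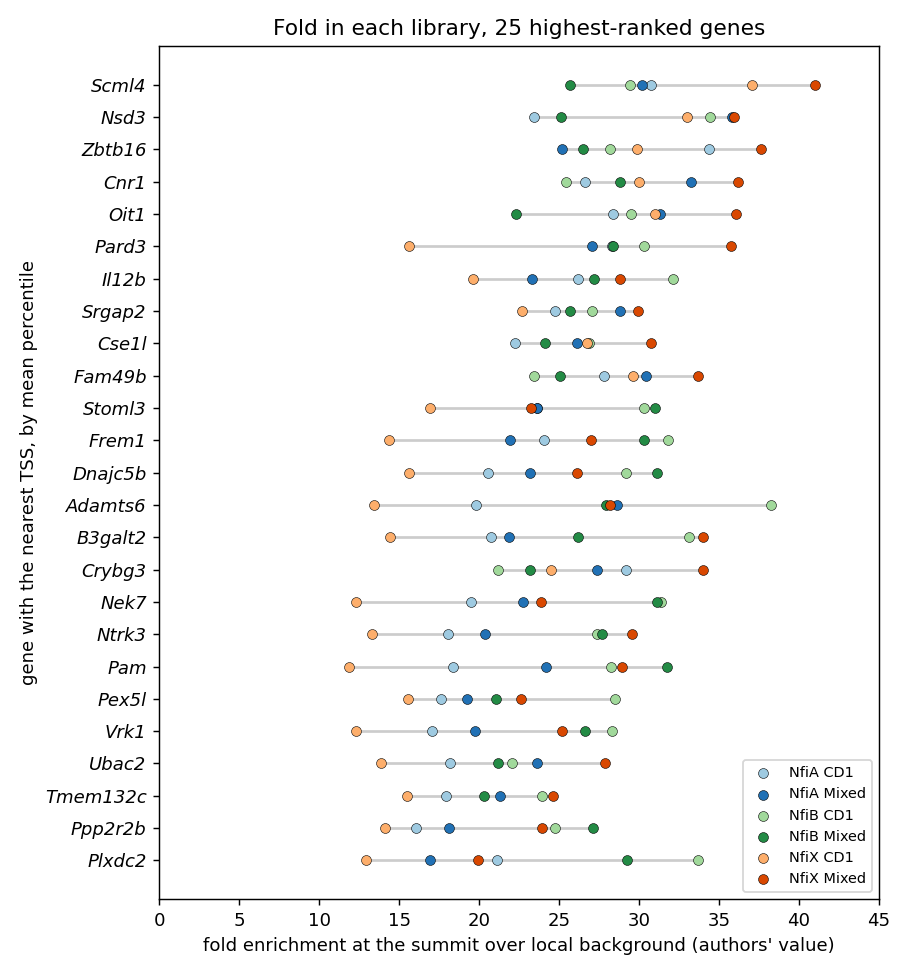
Authors' fold enrichment (x axis, ratio) of the best member of each of the 25 genes with the highest mean fold percentile, 1 point per library. Scml4 and Nsd3 are at the top, and NfiX CD1 is the lowest library for many of the genes below them.

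Genes further down these 25 included Srgap2, a regulator of neuronal migration and spine formation (22.7, 26.3 and 29.9, lowest, median and highest fold), and Crybg3 (21.2, 25.9 and 34.0). Nek7, of a kinase family with mitotic members, had 12.3, 23.3 and 31.4. Pam, which encodes the enzyme that amidates neuropeptides, had 11.8, 26.2 and 31.8, and Adamts6, a secreted metalloprotease gene, 13.4, 28.1 and 38.3. The others were Il12b, Fam49b, Frem1, Dnajc5b, B3galt2, Pex5l, Vrk1, Ubac2, Tmem132c, Ppp2r2b and Plxdc2, together with 3 regions whose intron belonged to another gene than the nearest TSS. Those were Oit1 (in 4930452B06Rik), Cse1l (in Stau1) and Stoml3 (in Frem2).

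The host gene was also the gene of the nearest TSS for 1554 members (84.7%), and 280 members had another gene nearest. The nearest TSS belonged to 1343 of 21866 protein-coding genes (6.14%), and the introns to 1289 (5.89%). Of the host genes, 964 held 1 member, 195 held 2 and 130 held 3 or more. The share of genes with a member followed the length of their introns that lay in reach of the rule. Among genes with under 10 kb of such intron, 0.331% hosted a member, and the share was 2.35% at 10 to 25 kb, 5.22% at 25 to 50 kb, 14.9% at 50 to 100 kb and 34.8% at 100 kb or more.

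Prickle2, a planar cell polarity gene, hosted 8 members over 253 kb, the most of any gene. The strongest, 9.46 kb upstream of an internal TSS, had lowest, median and highest folds of 12.6, 17.5 and 23.8, and the others had medians of 8.10 to 14.4. Tcf20, the gene of a transcriptional coregulator, hosted 7 members, all in the first intron and within 67.1 kb. Their median folds were 5.39 to 12.5. Pde2a, which encodes a cyclic nucleotide phosphodiesterase, held 5 members within 10.5 kb of its second intron, and the first of these reached 14.8, 17.7 and 27.8 while the other 4 had medians of 5.65 to 7.15. Kcnd3, a voltage-gated potassium channel gene, had 6 members in its first intron, 4 of them nearer to the TSS of Ddx20. Celf2, which encodes an RNA-binding protein, hosted 5 members over 453 kb, and 3 of them had median folds of 16.3 to 16.6. Tenm4 and E130114P18Rik hosted 6 each, and Pam, Ppp2r2b and C530008M17Rik 5 each.

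The first intron of the host held 787 members (42.9%, 95% Wilson interval 40.7 to 45.2%), the same share as in regions with 2 to 5 libraries (42.9%) and close to that of regions with 1 library (41.1%). Intron sequence that met the rule for place was 36.3% first intron. The introns that held members had a median length of 29.9 kb (quartiles 9.35 and 77.4 kb), against 28.0 kb for regions with 2 to 5 libraries and 27.6 kb for regions with 1 library. Members lay a median of 25.6 kb from the TSS (quartiles 10.8 and 51.5 kb), and 481 (26.2%) lay upstream of the nearest TSS. Among the 1554 with the host nearest, 330 (21.2%) were upstream of an internal TSS of that gene, so its introns included sequence on both sides of a start. In the distance bins from 1 to 5, 5 to 10, 10 to 25, 25 to 50 and 50 to 100 kb, 68.8%, 58.1%, 42.2%, 38.8% and 29.8% of members were in the first intron, against 59.4%, 43.9%, 34.0%, 27.7% and 25% of eligible intron sequence. The shares in regions with 2 to 5 libraries were 69.2%, 53.9%, 43.8%, 33.5% and 30.1% in the same bins.

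**Figure D3:**
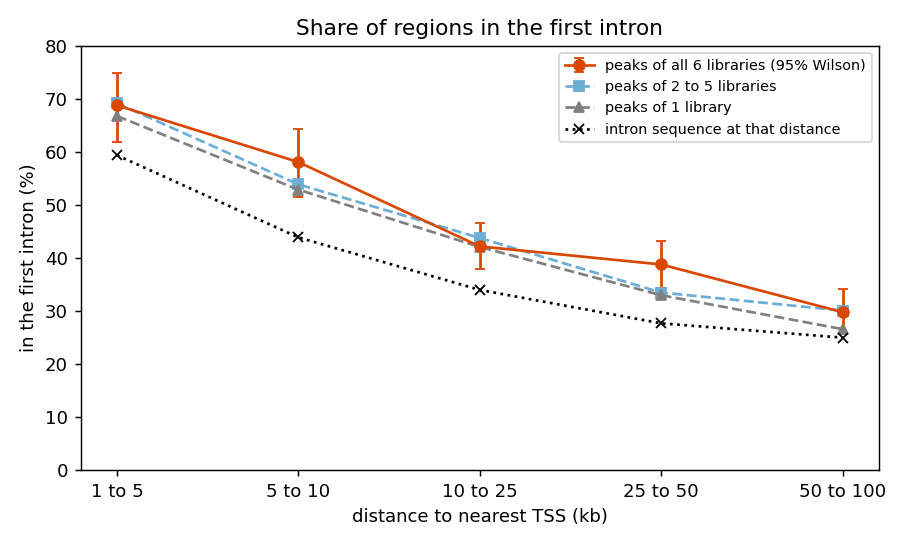
Share in the first intron (percent) by distance to the nearest protein-coding TSS (kb), for members with 95% Wilson intervals, regions with fewer libraries, and eligible intron sequence. Every set falls with distance, from 68.8% to 29.8% in the members.

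Member density per eligible megabase grew with distance from the TSS. Over the same 5 bins it was 1.68, 2.17, 2.44, 2.83 and 3.35 members per Mb, with 95% exact Poisson intervals (counting error only) of 1.45 to 1.94 in the nearest bin and 3.05 to 3.66 in the farthest, against 2.55 over all 720 Mb. Regions with 2 to 5 libraries had 10.1, 9.48, 10.8, 12.5 and 13.4 per Mb and regions with 1 library 6.04, 5.09, 6.12, 7.46 and 7.51. As a share of all intronic regions in each bin, with any number of libraries, members were 9.41%, 13.0%, 12.6%, 12.4% and 13.8%. The nearest bin thus held the lowest share of members, and the other 4 lay between 12.4% and 13.8%.

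**Figure D4:**
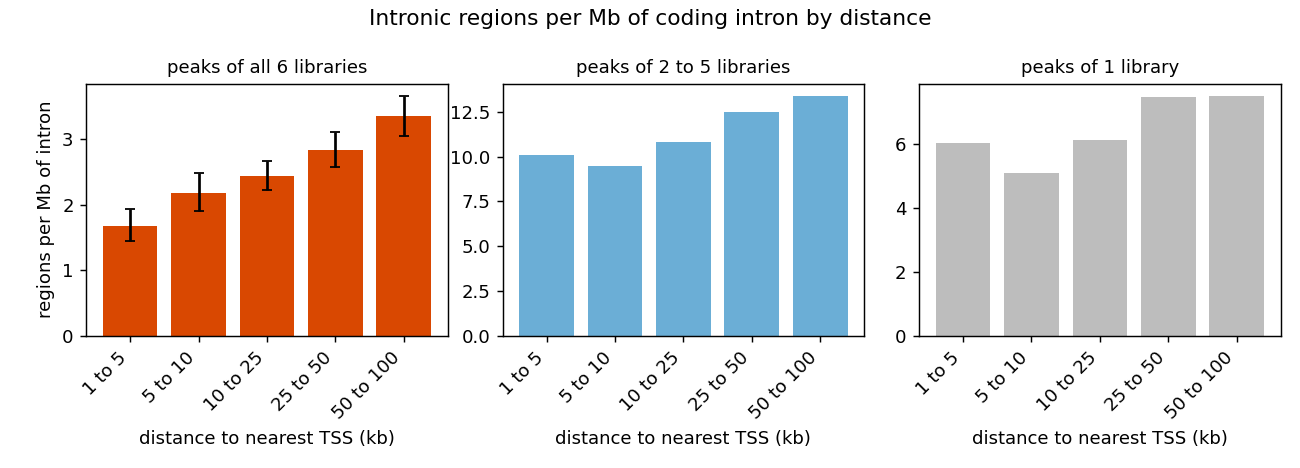
Regions per megabase of eligible intron sequence by distance to the nearest protein-coding TSS (kb), in 3 panels by number of libraries, each with its own scale, with 95% exact Poisson intervals on the members. Members are at 1.68 per Mb within 5 kb and 3.35 per Mb beyond 50 kb.

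After the NFI family itself, the lists of cell adhesion, ion channel and axon guidance genes had the highest shares of genes next to a member. Across 19 lists, chosen with earlier results of these data known and overlapping in part, 160 of 535 genes (29.9%) were nearest to a member, against 6.14% of all protein-coding genes. Among genes with 100 kb or more of eligible intron, 30.2% were nearest to a member, and the median eligible intron over all genes was 12 kb. The median was 142 kb in the NFI family, 206 kb in the adhesion list, 155 kb in the ion channel list and 99 kb in the axon guidance list. The part of intron length in the counts was not tested.

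Of 39 cell adhesion genes, 21 (53.8%) were nearest to a member. The count was 11 when each library was limited to as many of its strongest peaks as the shortest list holds. In that setting the nearest genes over all protein-coding genes fell from 1343 to 688. Pcdh9, a protocadherin gene, had lowest, median and highest folds of 15.3, 20 and 29.5 at a region 1.05 kb from the TSS. Tenm4, a teneurin gene, had 11.1, 20.5 and 29.2, Cadm2, an immunoglobulin-domain adhesion molecule gene, 13.4, 17.4 and 29.5, and Tenm2 12.5, 17.0 and 20.4. The lowest folds of these 4 were 11.1 to 15.3. Of 36 axon guidance genes, 17 (47.2%) were nearest to a member. Among them Sema3d, a secreted semaphorin gene, had 9.37, 13.8 and 19.3, Epha4, an ephrin receptor gene, 8.36, 12.8 and 18, and Robo2, a Slit receptor gene, 9.08, 14.0 and 18.2. Draxin, which encodes a secreted guidance ligand, had 9.07, 12.1 and 18.1.

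Polarity and migration genes counted 16 of 35 (45.7%), and ion channel and neurotransmitter receptor genes 22 of 46 (47.8%). With lists of equal length these counts were 8 and 14, while the nearest genes over all protein-coding genes fell from 1343 to 688. Besides Pard3, Srgap2 and Prickle2, the polarity list held Reln, the gene of the migration ligand reelin, with folds of 8.51, 16.2 and 22.6. In the channel list, Cnr1 led. The calcium release channel gene Ryr2 had 9.84, 13.2 and 20.7, and Kcnj3, an inwardly rectifying potassium channel gene, 6.68, 13.7 and 15.3. Synapse genes counted 11 of 36 (30.6%), led by Nrg1 (14.7, 17.8 and 21.4), and 20 without NfiX CD1. Growth factor receptor and kinase genes counted 13 of 38 (34.2%), led by Ntrk3 and Alk, and 23 without NfiX CD1. Leaving out the 1 library thus moved both of those counts by more than 1.5 times. The nearest genes over all protein-coding genes rose with them, from 1343 to 2269 of 21866.

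Transcription factors counted 19 of 52 (36.5%), led by Zbtb16, Runx1t1, a corepressor gene (14.6, 20 and 25.9), Tcf3, an E-protein gene (13.2, 15.0 and 19.7), and Mef2a (9.79, 16.0 and 24.0). Chromatin regulators counted 11 of 42 (26.2%), with Arid5b (13.0, 18.2 and 20.7) and the remodeller gene Chd7 (8.12, 12.9 and 17.7) behind Scml4 and Nsd3. RNA-binding and splicing factors counted 6 of 36 (16.7%), led by Celf2 and Rbfox1 (9.46, 14.6 and 23.9).

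The NFI genes themselves carried members in 3 of 4 cases, and in 4 of 4 without NfiX CD1. Nfia had 5 members, and its strongest, 1005 bp upstream of a TSS, had folds of 11.8, 12.9 and 19.6. Nfib had 4, the strongest with 8.07, 11.4 and 15.9, and Nfic 3, the strongest with 10.8, 12.4 and 13.4, while Nfix had 0 with all 6 libraries. The 6 of 25 granule neuron lineage genes with a member (24.0%) were Reln, Gli2, Pax6, Cntn1, Dcx and Nrcam, and the count was 13 without NfiX CD1. Leaving out NfiX CD1 raised the number of nearest genes from 1343 to 2269 over all protein-coding genes. The Pax6 region lay in an intron of Elp4, 44.2 kb from the Pax6 TSS, with folds of 8.76, 9.67 and 14.5. Sonic hedgehog pathway genes counted 3 of 20 (15.0%) and 5 without NfiX CD1. They were Gli2, a transcriptional effector (7.59, 11.1 and 19.0), Sufu, an inhibitor (6.34, 10.5 and 12.2), and Boc, a coreceptor (5.63, 6.77 and 14.2). Wnt and Notch pathway genes counted 4 of 36 (11.1%), and the 4 were Maml3, Wnt5a, Tcf7l1 and Dkk3. With lists of equal length the count was 2, in a setting that left 688 nearest genes in all.

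**Figure D5:**
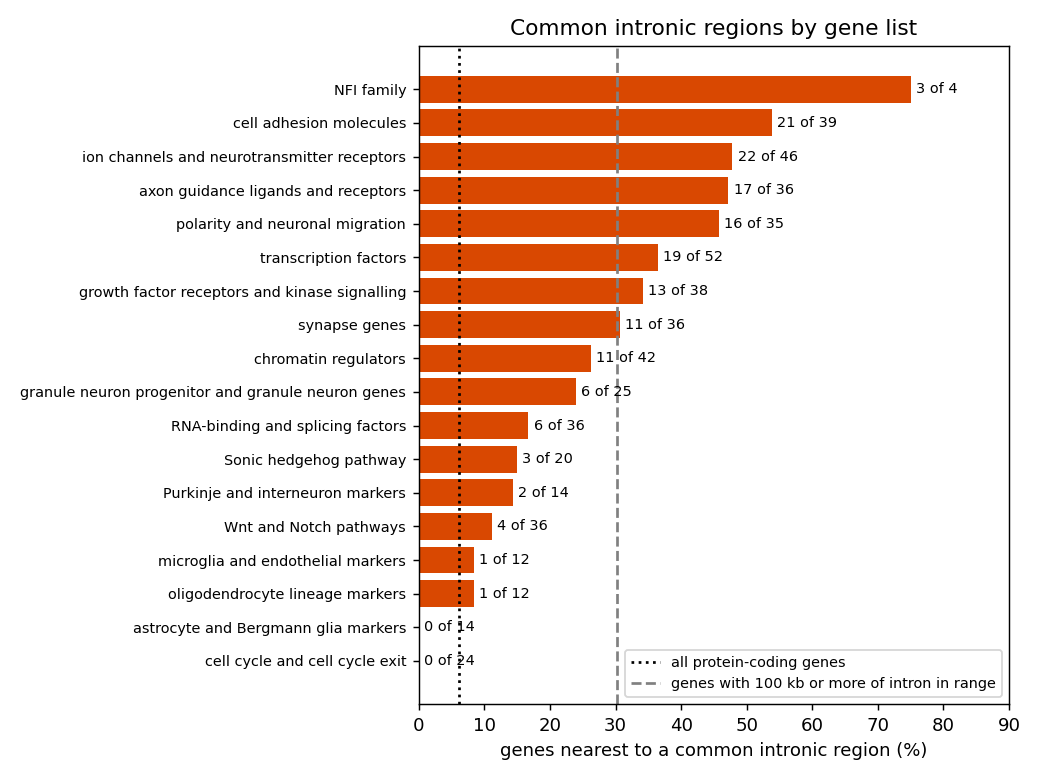
Percent of genes in each list shown whose TSS is nearest to a member, with the share of all protein-coding genes (6.14%) as the dotted line and that of genes with 100 kb or more of eligible intron (30.2%) as the dashed line. The NFI family, cell adhesion, ion channel and axon guidance lists are the highest, and the cell cycle and astrocyte lists are at 0.

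Of the lists for other cell types, astrocyte and Bergmann glia markers counted 0 of 14, and oligodendrocyte lineage markers 1 of 12 (8.33%), which was Pdgfra (8.74, 11.6 and 16.9). Purkinje and interneuron markers counted 2 of 14 (14.3%), Itpr1 and Skor2, and microglia and endothelial markers 1 of 12 (8.33%), which was Kdr (7.36, 13.6 and 16.3). Over all protein-coding genes the share was 6.14%, and these lists of 12 or 14 genes are too short to be read as above or below it. Without NfiX CD1 these counts were 2, 2, 5 and 2, while the nearest genes over all protein-coding genes rose from 1343 to 2269. Cell cycle and cell cycle exit genes counted 0 of 24 and 3 without NfiX CD1, with a median eligible intron of 6 kb, and the glial list had 9.50 kb.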

How the data were processed

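Bowtie2 2.2.6, SAMtools 1.4.1, MACS2 2.1.0 and the build mm10 appear in the submitters' processing notes. The sources used here do not state how the inputs were used, how reads were filtered or where the peak threshold was set. Each library has 1 peak list, in which the authors give fold enrichment as a ratio over local background. Per peak, the deposited −log10 p-values and −log10 q-values come from the authors' peak caller. Read depth is unknown, since the files give no read totals, and no unit here is a count of reads.

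From these, merged regions were placed against TSSs, exons and introns of coding transcripts of protein-coding genes (GENCODE, mm10). The intron number is that of the transcript whose TSS is nearest. A fold percentile is a member's rank among members within 1 library. Shares carry 95% Wilson intervals. The palindrome was tested by an exact sign-flip permutation (two-sided) over 6 libraries. No genome sequence was used here, so windows came from annotated transcripts, and promoters came from RefSeq. Genes were named as the 25 with the highest mean percentile, the 10 hosts with most members, up to 4 per list, and 3 regions on each side of each limit. Other genes named were chosen after their values were seen. A gene list and a gene that these rules named are not reported here. The members and lists were chosen with earlier results of these data known. Python 3.11.15, NumPy 2.4.6, SciPy 1.17.1, pandas 2.3.3 and matplotlib 3.10.9 were used, and the scripts were tested on simulated data.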

Additional observations from a re-analysis of the deposited data

How the results depend on the processing

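Taking as many of the strongest peaks per library as the shortest list holds left 836 regions and 688 nearest genes, all of them among the 1343. Leaving out each library in turn gave 1844 to 3730 regions, 1351 to 2269 nearest genes and a first-intron share of 42.8 to 43.1%. The first-intron share was 37.3% with TSSs of all gene biotypes, 45.5% with whole regions free of coding exons and 47.5% within 50 kb, the last chosen after seeing the data. The palindrome's log2 odds ratio was 5.18 to 5.53 with 1 library left out, where the smallest exact sign-flip p is 0.0625, so no such value could pass. It was 4.32 with TSSs of all gene biotypes (2 to 3 palindromes in 35 to 37 windows) and 4.38 with lists of equal length (2 to 3 in 15 to 17). With introns set by exons of all transcripts, also chosen after seeing the data, it was 2.43 with 0 palindromes in 17 to 18 windows, a value made by the correction alone, since all 6 palindromes lie in retained-intron exons. The 25 regions of highest rank remained members in most settings, and 18 of them within 50 kb, 23 with TSSs of all gene biotypes or with whole regions free of coding exons, and 24 with exons of all transcripts. NfiX CD1, the shortest peak list, limits the set, read depth is unknown, and the 42 readable members limit every statement on sequence. No paired analysis of libraries was run because no result compares groups of libraries. The sign-flip test sets summits against flanks within each library, and did not pair a summit with its own flanks.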

Other observations

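Counting members whose 2 percentiles for a factor both exceeded all 4 of the other factors, NFIA had 68 (3.71%), while NFIB had 273 (14.9%) and NFIX had 192 (10.5%). The same counts were not made in the other common regions, so they do not show a trait particular to the members. The genes named here were chosen after their values were seen, and no test was run. Ank3, which encodes the axon initial segment scaffold ankyrin-G, had a region with folds of 16.1 (CD1) and 14.7 (Mixed) for NFIB, against 7.64 (CD1) and 8.08 (Mixed) for NFIA and 5.63 (CD1) and 9.36 (Mixed) for NFIX. A Lasp1 region, in a gene of an actin-binding protein, had folds of 9.18 (CD1) and 13.6 (Mixed) for NFIX, against 5.46 (CD1) and 5.73 (Mixed) for NFIA and 7.03 (CD1) and 7.23 (Mixed) for NFIB. The Rabgap1l region had percentiles of 78.4 in NfiA CD1 and 63.7 in NfiA Mixed, against at most 45.8 in the other 4 libraries.

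Annotated microRNA hairpins lay within 2 kb of 6 of the 1834 members. The share among other regions was not counted, so this describes places only. The Mir5110 hairpin overlapped the member in Bcas3. Mir148b lay 409 bp from the member in Copz1, Mir1191b 509 bp from one in Nfic, and Mir7243 589 bp from one in Ephb1. Mir335 lay 1550 bp from the member in Mest, and Mir3080 lay 1904 bp from one in Tcf20.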
